A study of Mus musculus with 8 samples.

Results

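Immune checkpoint ligands are surface or secreted proteins with which a cell lowers, or in a few cases raises, the activity of the T cells, NK cells and macrophages that touch it. The best known, PD-L1 and PD-L2, bind PD-1 on T cells. B7-1 (CD80) binds CD28 and CTLA-4, while CD47 binds SIRPα on macrophages and restrains phagocytosis. The poliovirus receptor (PVR) and nectin-2 bind the inhibitory receptor TIGIT and the activating receptor DNAM-1 on T and NK cells, and galectin-9 binds TIM-3. CD40 is a receptor rather than an inhibitory ligand, and on antigen-presenting cells its engagement by CD40L is stimulatory. LLC, the mouse Lewis lung carcinoma line, is grown as a tumor in immune-competent mice, where such molecules stand between the cancer cell and the host. The transcripts of 9 of these genes, Cd274 (PD-L1), Pdcd1lg2 (PD-L2), Cd80, Cd276 (B7-H3), Cd47, Pvr, Nectin2, Lgals9 (galectin-9) and Cd40, were followed in RNA-seq of LLC cells in culture. They were chosen by name, and all 9 were matched by symbol among the 55487 genes of the deposited tables.

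The 8 libraries came from 4 samples of wild-type LLC cells and 4 of LLC cells in which Ago2, the small-RNA-guided effector of RNA interference, had been knocked out (ΔAgo2). Both groups grew in DMEM with GlutaMAX, 10% ESC FBS and penicillin-streptomycin, and no treatment was named in the labels. The ΔAgo2 cells had been made with a lentiviral CRISPR-Cas9 vector and puromycin and then sorted as single cells, and whether the 4 ΔAgo2 samples came from 1 clone, or whether the wild-type cells carried a vector without the guide, was not given in the sources used here. The labels name no other cell type in these cultures. The labels call the samples biological replicates without saying whether they were separate cultures, so p-values measure the spread between these samples.

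Totals ran from 39628101 to 68530912 counts per library. Wild-type replicate 4 stood apart: its median Spearman correlation with the other wild-type libraries was 0.864, against 0.948 to 0.961 for the other 3 and 0.985 to 0.986 within ΔAgo2, and 0.540% of its counts were mitochondrial, against 2.39% to 4.51% in the other 7 libraries. The closest pair, ΔAgo2 replicates 1 and 2, differed by 25.4 times the chi-square per degree of freedom that sampling noise gives, against 101 to 141 times for the other ΔAgo2 pairs. A value above sampling noise does not show whether libraries came from separate cultures. Each library was counted on its own, following the labels. Ago2 transcripts were at 119 to 520 CPM in wild-type and at 293 to 408 CPM in ΔAgo2, with a log2 fold change of 0.21 ± 0.40 (SE, adjusted p = 0.908). CPM are read counts relative to library size, scaled between libraries. A Cas9 cut can disable a protein and leave its transcript, so these reads do not check the labels, and ΔAgo2 below means the libraries so labelled. The study itself measured Ago2 protein in wild-type and ΔAgo2 LLC cells by Western blot, which is not part of the data used here. Of 16 immune cell markers, 9 had at most 3 reads in every library, among them Ptprc (CD45), the pan-leukocyte marker, with at most 2, and Cd3e, Ncr1, Nkg7 and Tyrobp were at 0 throughout. The summed TPM (counts divided by gene length and brought to the same total in each library) of the 16 was 21.2 to 108.7 in wild-type and 19.6 to 50.4 in ΔAgo2, most of it Cd68. Itgax (CD11c), with 68 to 618 reads per library, and Lyz2, with 25 to 163, were also detected in each library. Of 6 stromal markers, 3 had enough reads to be tested. Pdgfra was at 2.66 to 21.8 TPM in wild-type and 13.4 to 28.9 TPM in ΔAgo2. Dcn reached at most 4.73 TPM, and Pecam1 had at most 20 reads. Of the carcinoma markers, Krt8, Krt18 and Vim were well expressed, at 66.8 TPM or more in all 8 libraries, while the epithelial markers Epcam and Cdh1 had at most 1 and 9 reads and the lung lineage marker Nkx2-1 had none.

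The genes lie on 6 chromosomes, and 4 of them form neighbouring pairs (GRCm38). Cd274 (chr19:29367455-29388095, plus strand) and Pdcd1lg2 (chr19:29410919-29471161, plus strand) are 22.8 kb apart, and Nectin2 (chr7:19716644-19750483, minus strand) and Pvr (chr7:19903578-19921160, minus strand) are 153 kb apart. Cd80 (chr16:38455561-38496335) and Cd47 (chr16:49800533-49915010) share a chromosome at a distance of 11.3 Mb. Cd276 is at chr9:58524298-58555437, Lgals9 at chr11:78962974-78984946 and Cd40 at chr2:165055627-165072948. Reads of overlapping antisense genes were few: A930007I19Rik, which overlaps Pdcd1lg2 on the other strand, had 14 to 50 counts, Gm10657, over the start of Cd276, had 20 to 43, and Gm20512, over Nectin2, had 2 to 21. The strand setting of the counting was not given in the sources used here.

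RefSeq promoters (GRCm38.p6) were found for 7 of the 9 genes. No entry was found for Pvr or Cd40. The 250 bases before the RefSeq start are shown for Cd274 and Pdcd1lg2, the neighbours of which the former was transcribed in each library and the latter gave no read, and for Cd47, one of the highest of the set, with each CpG dinucleotide in capitals. The coordinates are chr19:29367188-29367437 for Cd274, chr19:29410669-29410918 for Pdcd1lg2 and chr16:49855404-49855653 for Cd47, all on the plus strand and written 5′ to 3′. The Cd47 window lies inside the gene span given above, downstream of its start, as do the windows of Cd80, Cd276 and Nectin2. The CpG counts below are therefore those before the RefSeq starts.
Cd274: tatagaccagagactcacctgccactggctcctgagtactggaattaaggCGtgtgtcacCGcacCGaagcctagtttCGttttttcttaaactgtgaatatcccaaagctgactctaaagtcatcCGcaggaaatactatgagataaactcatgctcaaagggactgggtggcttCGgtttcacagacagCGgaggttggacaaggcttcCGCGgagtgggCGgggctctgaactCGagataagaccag
Pdcd1lg2: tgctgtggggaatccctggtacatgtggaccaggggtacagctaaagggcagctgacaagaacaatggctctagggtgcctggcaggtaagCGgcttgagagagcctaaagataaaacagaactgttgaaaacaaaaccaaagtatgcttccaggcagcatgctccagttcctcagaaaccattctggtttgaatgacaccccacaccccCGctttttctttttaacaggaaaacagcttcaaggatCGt
Cd47: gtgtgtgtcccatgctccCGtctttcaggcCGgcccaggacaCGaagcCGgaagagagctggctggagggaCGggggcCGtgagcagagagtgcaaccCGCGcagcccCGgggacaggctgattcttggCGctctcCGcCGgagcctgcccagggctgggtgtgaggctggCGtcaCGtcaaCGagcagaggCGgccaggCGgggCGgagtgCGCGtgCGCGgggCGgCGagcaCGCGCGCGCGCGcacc
The Cd274 window held 11 CpG, the Pdcd1lg2 window 3 and the Cd47 window 30. Over the 27025 genes with a promoter in the table the median was 6, and it was 16 over the 10094 of them that were expressed well enough here to be tested and 3 over the rest. Cd276, with 29 CpG, and Nectin2, with 16, also held more than the overall median, while Cd80 and Lgals9 held 3 each. Median TPM followed this in part: Cd47 and Cd276 had many CpG and high levels, Pdcd1lg2 and Cd80 few CpG and low levels, and Lgals9 few CpG with a median of 41.6 TPM in wild-type. Cd274, with 11 CpG, had a median of 3.48 TPM in wild-type, and Nectin2, with 16, had 22.0 TPM.

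Interferon-response elements are of interest because interferon is a known inducer of PD-L1 and galectin-9. The motif GAAANNGAAA, searched on both strands, occurred once among the 7 windows, in Lgals9, against 3.04% of all promoter windows of this length. The Lgals9 window (chr11:78984925-78985174, minus strand, written along the gene) is shown with the match, which reads as GAAAAAGAAA on the other strand and begins 55 bases before the start, in capitals.
Lgals9: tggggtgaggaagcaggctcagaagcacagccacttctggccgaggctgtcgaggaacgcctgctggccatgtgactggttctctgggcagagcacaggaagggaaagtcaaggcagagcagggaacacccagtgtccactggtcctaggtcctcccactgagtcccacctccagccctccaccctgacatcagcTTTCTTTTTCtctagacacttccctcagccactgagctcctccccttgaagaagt
The STAT motif TTCNNNGAA, whose overlap with the first was not considered, was in none of the 7 windows and in 7.18% of all. A match is a description of letters and not of a bound site.

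Per length, the ligands of LLC cells differed widely in level. Cd47, Cd276 and Pvr were the most abundant, Lgals9 and Nectin2 were intermediate, Cd274 was low, Cd80 and Cd40 were lower still, and Pdcd1lg2 was not detected. In ΔAgo2 cells Cd47 led at 118 ± 17.8 TPM (SD, n = 4), followed by Cd276 at 86.4 ± 4.83, Pvr at 85.6 ± 34.1, Lgals9 at 62.0 ± 15.7, Nectin2 at 19.4 ± 3.38, Cd274 at 4.60 ± 0.927, Cd80 at 0.990 ± 0.551 and Cd40 at 0.448 ± 0.414 TPM. In wild-type cells Cd276 led at 105 ± 33.5 TPM (SD, n = 4), followed by Cd47 at 68.7 ± 31.8, Pvr at 52.6 ± 45.3, Lgals9 at 41.7 ± 21.4, Nectin2 at 19.4 ± 10.6, Cd274 at 3.83 ± 2.83, Cd80 at 0.810 ± 0.745 and Cd40 at 0.368 ± 0.285 TPM. The rank of each gene was the same by mean and by median TPM in both groups, and by mean also without wild-type replicate 4.

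Neighbours in this order differed beyond their spread mainly in ΔAgo2. There the ranges over 4 libraries did not overlap between Cd47 and Cd276, between Lgals9 and Nectin2, between Nectin2 and Cd274 or between Cd274 and Cd80, and they overlapped between Cd276 and Pvr, between Pvr and Lgals9 and between Cd80 and Cd40. In wild-type the ranges of each pair of neighbours above the undetected Pdcd1lg2 overlapped. Within a library the order was firmer, since Lgals9 was above Nectin2, and Nectin2 above Cd274, and Cd274 above Cd80, in 4 of 4 wild-type and 4 of 4 ΔAgo2 libraries. The top position changed hands: Cd47 was highest in 4 libraries, Cd276 in 2 and Pvr in 2.

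**Figure D1:**
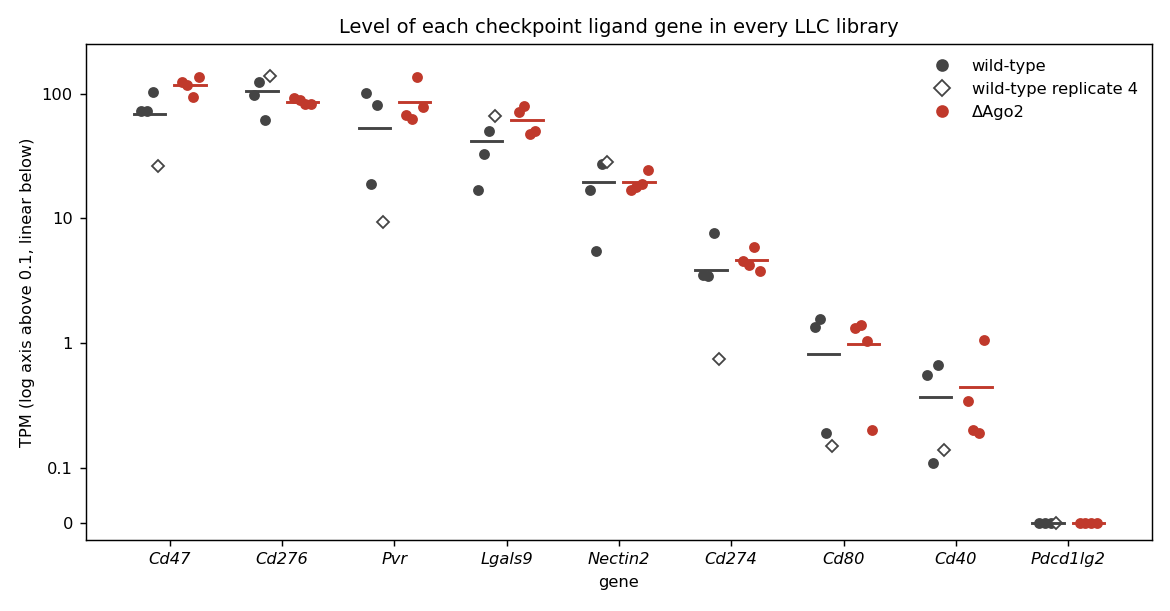
TPM of the 9 genes (x axis, ordered by level in ΔAgo2) in each library, on an axis that is logarithmic above 0.1 and linear below; points are libraries, open diamonds are wild-type replicate 4 and short lines are group means. Levels run from above 100 TPM for Cd47, Cd276 and Pvr to 0 for Pdcd1lg2, and in TPM wild-type replicate 4 is the lowest wild-type point for Cd47, Pvr, Cd274 and Cd80.

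PD-L1 transcripts were scarce beside those of B7-H3, a B7 family member whose receptor is still debated. The ratio of Cd276 to Cd274 TPM was between 13.8 and 22.1 in the 4 ΔAgo2 libraries and between 8.02 and 186 in wild-type, where the highest value was that of replicate 4. PD-L2 was not detected: Pdcd1lg2 had 0 counts in all 8 libraries, and a count of 0 allows up to 3 counts per library. No fold change exists for it, and Cd274 reads 22.8 kb upstream totalled 1915 over the same libraries.

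The 9 genes together made 372 to 384 TPM in the 4 ΔAgo2 libraries and 258 to 332 TPM in the 4 wild-type libraries, 2 ranges that did not overlap. No single ligand separated the genotypes in TPM, and how often sums over other genes separate was not tested. The median log2 fold change was 0.16 over the 14362 genes tested on log2(TPM + 1), although TPM have the same total in each library. It was -0.11 over the 14228 genes tested on TMM-scaled counts. How much of the difference in the sum goes with the scale was not tested, and the sum is given as a description. Cd47, Cd276 and Pvr made up 64.4% to 87.3% of the sum in wild-type and 72.3% to 80.9% in ΔAgo2. Cd276 held 18.4% to 51.2% in wild-type and 21.3% to 24.4% in ΔAgo2, and Pvr held 3.50% to 32.4% in wild-type and 16.7% to 35.4% in ΔAgo2. Cd274 held at most 2.29% in any library.

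**Figure D2:**
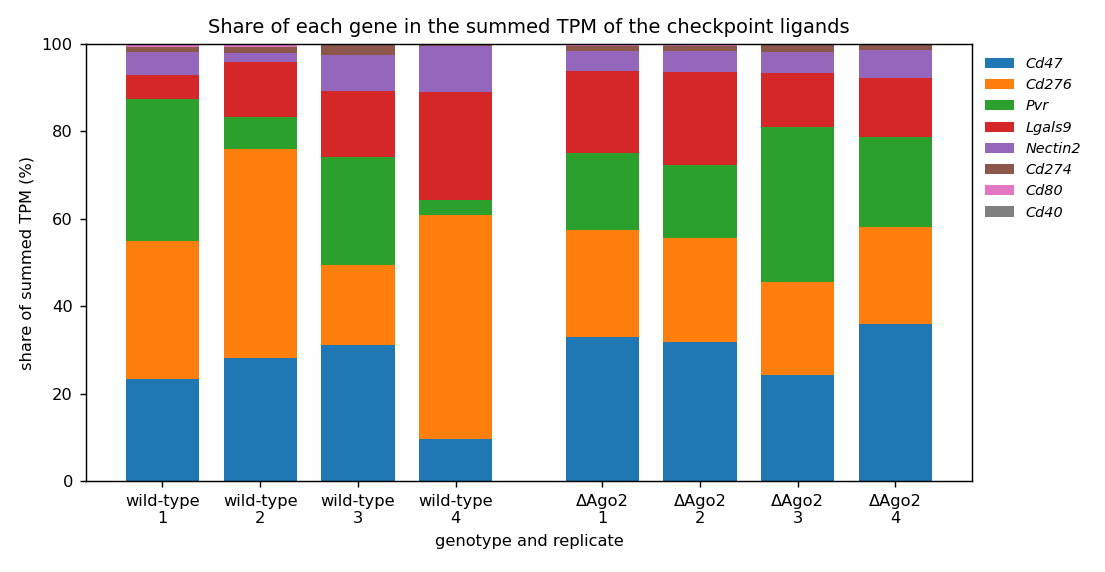
Stacked bars of the share (%, y axis) of each gene in the summed TPM of the 9 genes, for each library by genotype and replicate (x axis); Pdcd1lg2, at 0, has no segment. Cd276 takes 51.2% of the sum in wild-type replicate 4 and Cd47 takes 9.71%, while the 4 ΔAgo2 bars differ most in Pvr.

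Whether loss of Ago2 changed these transcripts was tested with edgeR's quasi-likelihood test over the 14228 genes with enough reads, 8 of the 9 among them. No ligand reached an adjusted p under 0.05, which 42 tested genes (0.295%) did. None had an unadjusted p under 0.05, where 7.34% of tested genes did, and DESeq2 likewise called 0 of the 8 at an adjusted and 0 at an unadjusted p of 0.05. Among the 19 alternative settings none gave a ligand an adjusted p under 0.05, while an unadjusted p under 0.05 arose in 4 for Cd47, in 2 for Lgals9 and in 1 for Cd276. The share of all tested genes with an unadjusted p under 0.05 is not given for those settings. They called 3 to 257 genes at an adjusted p under 0.05, against 42 in the main fit. For no ligand were the genotypes separated without overlap in CPM, as they were for 6.07% of tested genes. Log2 fold changes, ΔAgo2 over wild-type, were above 0 for 6 genes and below 0 for 2, with a median of 0.18, against a median of -0.11 over all tested genes, of which 41.2% were above 0. Without wild-type replicate 4, 4 of the 8 were above 0 and their median was 0.05, against -0.04 over all tested genes. The intervals were wide, and a p that missed the threshold does not show that the genotypes were alike.

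**Figure D3:**
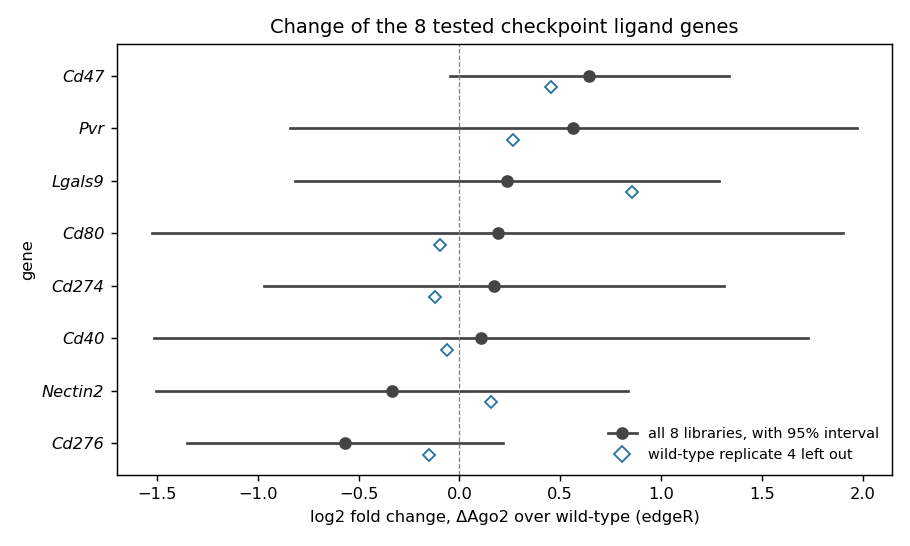
Log2 fold change, ΔAgo2 over wild-type, of the 8 tested genes (y axis) from edgeR, with 95% intervals from all 8 libraries (filled points and lines) and the value with wild-type replicate 4 left out (open diamonds). All 8 intervals include 0, and for Cd80, Cd274, Cd40 and Nectin2 the diamond lies on the other side of 0 from the point.

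Cd47, the phagocytosis checkpoint, came nearest to a difference. It was at 147, 117, 189 and 73.9 CPM in wild-type replicates 1 to 4 and at 207, 204, 173 and 240 CPM in ΔAgo2 replicates 1 to 4. In ΔAgo2, 3 libraries were above the highest wild-type library, and ΔAgo2 replicate 3 fell below wild-type replicate 3, so the groups overlapped. The log2 fold change was 0.64 ± 0.31 (SE, adjusted p = 0.706, unadjusted p = 0.065), and the 95% interval ran from -0.05 to 1.33, whose upper end is a 2.52-fold higher level in ΔAgo2. The exact permutation test on log2(CPM + 0.1), two-sided over all 70 splits, gave p = 0.0571, where the smallest value the design allows is 0.0286. Without wild-type replicate 4 the log2 fold change was 0.45 (adjusted p = 0.391), and over all alternatives run it stayed between 0.32 and 0.92 with adjusted p between 0.205 and 0.979.

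Cd276, the B7 family member that LLC cells expressed most, was the one gene beside Nectin2 with a fold change below 0. It was at 116, 115, 65.2 and 227 CPM in wild-type replicates 1 to 4. In ΔAgo2 it was at 89.3, 89.4, 88.5 and 86.0 CPM, a range of 1.04-fold against 3.48-fold in wild-type. In wild-type, 3 libraries were above the ΔAgo2 range and replicate 3 was below it. The log2 fold change was -0.57 ± 0.35 (SE, adjusted p = 0.740), with a 95% interval from -1.35 to 0.22, and it was -0.15 without wild-type replicate 4 (adjusted p = 0.800). The SD of log2(CPM + 0.1) was 0.03 in ΔAgo2 and 0.74 in wild-type (0.48 without replicate 4). The corresponding medians over all tested genes were 0.23, 0.76 and 0.42. For 8 of the 8 tested ligands the SD was larger in wild-type, with and without replicate 4, as it was for 93.4% of all tested genes with it and 78.9% without it.

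For the pair that TIGIT and DNAM-1 recognise, wild-type libraries disagreed among themselves more than the genotypes did. Pvr was at 200 and 146 CPM in wild-type replicates 1 and 3 and at 29.5 and 26.0 CPM in replicates 2 and 4. In ΔAgo2 replicates 1 to 4 it was at 109, 105, 246 and 134 CPM, so the ΔAgo2 values lay across the upper wild-type pair and above the lower pair. The log2 fold change was 0.57 ± 0.63 (SE, adjusted p = 0.837). It ran from 0.20 without ΔAgo2 replicate 3 to 1.15 without wild-type replicate 1, and was 0.27 without wild-type replicate 4 and 0.25 without wild-type replicate 2. Nectin2 was at 19.2, 4.85, 27.7 and 44.4 CPM in wild-type and at 15.7, 17.0, 19.3 and 24.1 CPM in ΔAgo2 replicates 1 to 4. The ΔAgo2 range lay within the wild-type range, and the log2 fold change of -0.34 ± 0.53 (SE, adjusted p = 0.886) turned to 0.15 without wild-type replicate 4. Pvr exceeded Nectin2 per length by 3.18 to 7.26 times in ΔAgo2 and by 3.00 to 5.94 times in wild-type replicates 1 to 3, and the ratio was 0.334 in wild-type replicate 4.

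PD-L1 itself was at 4.13, 3.19, 8.05 and 1.21 CPM in wild-type replicates 1 to 4 and at 4.35, 4.21, 6.32 and 3.86 CPM in ΔAgo2 replicates 1 to 4. These values rest on 39 to 542 reads of Cd274 per library. The highest and the lowest value were both wild-type, and the ΔAgo2 values lay between them. The log2 fold change of Cd274 was 0.17 ± 0.51 (SE, adjusted p = 0.945), with a 95% interval from -0.97 to 1.31, which does not exclude a level 1.96-fold lower or 2.49-fold higher in ΔAgo2. It was -0.12 without wild-type replicate 4 and -0.02 without ΔAgo2 replicate 3.

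Lgals9 was at 11.8, 17.9, 31.5 and 64.0 CPM in wild-type replicates 1 to 4 and at 40.2, 46.7, 29.9 and 30.4 CPM in ΔAgo2 replicates 1 to 4. The 4 ΔAgo2 values lay within the wild-type range, above its 2 lowest libraries and below its highest. Lgals9 had a log2 fold change of 0.24 ± 0.47 (SE, adjusted p = 0.916), and it was 0.85 without wild-type replicate 4 (adjusted p = 0.335) and -0.03 without wild-type replicate 1. Its adjusted p was between 0.078 and 0.989 over the alternatives run, and the lowest came from limma-voom with sample weights, where its log2 fold change was 1.29.

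Cd80 and Cd40 were the lowest of the detected ligands. Cd80 was at 1.61 and 1.47 CPM in wild-type replicates 1 and 2 and at 0.208 and 0.248 CPM in replicates 3 and 4. In ΔAgo2 it was at 1.30, 1.43 and 1.13 CPM in replicates 1 to 3 and at 0.208 CPM in replicate 4, so libraries of either genotype fell near 1 of 2 levels. These are 8 to 104 reads per library, and in bulk RNA fewer cells with the transcript and less of it per cell cannot be told apart. For Cd80 the log2 fold change was 0.19 ± 0.77 (SE, adjusted p = 0.963), and it was -0.14 without wild-type replicate 3, -0.10 without wild-type replicate 4 and -0.01 without ΔAgo2 replicate 2. Cd40, which the study includes in an interferon signature taken from its tumors, was at 0.610, 0.099, 0.669 and 0.217 CPM in wild-type replicates 1 to 4 and at 0.309, 0.190, 0.196 and 1.02 CPM in ΔAgo2 replicates 1 to 4. It had 7 to 54 reads per library, and the ΔAgo2 value of replicate 4 was the highest of the 8. For Cd40 the log2 fold change was 0.11 ± 0.73 (SE, adjusted p = 0.979), with a 95% interval from -1.51 to 1.73, and it turned to -0.77 without ΔAgo2 replicate 4, -0.23 without wild-type replicate 2 and -0.06 without wild-type replicate 4.

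In CPM, wild-type replicate 4 was the lowest wild-type library for 3 of the 8 ligands and the highest for 3. The direction went with base composition. The ligands with the highest GC content in their longest transcript, Nectin2 (58.0%), Cd276 (56.2%) and Lgals9 (51.8%), were 3.22, 2.38 and 3.39 times higher in it than the mean (on the log scale) of replicates 1 to 3. Cd47 (42.2%), Cd80 (42.7%), Cd274 (44.9%) and Pvr (48.6%) were 2.01, 2.69, 3.69 and 3.65 times lower, and Cd40 (48.8%) lay at -0.59 on the log2 scale. Spearman's rho between GC content and this deviation was 0.71 over the 8 ligands and 0.72 over all tested genes. The points of each share 1 library. The part of GC content in the fold changes was not tested beyond a correction for it, under which Nectin2 went from -0.34 to 0.07, Cd276 from -0.57 to -0.22, Cd47 from 0.64 to 0.32, Cd274 from 0.17 to 0.08, Cd80 from 0.19 to 0.06 and Lgals9 from 0.24 to 0.42, while Pvr stayed at 0.53.

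**Figure D4:**
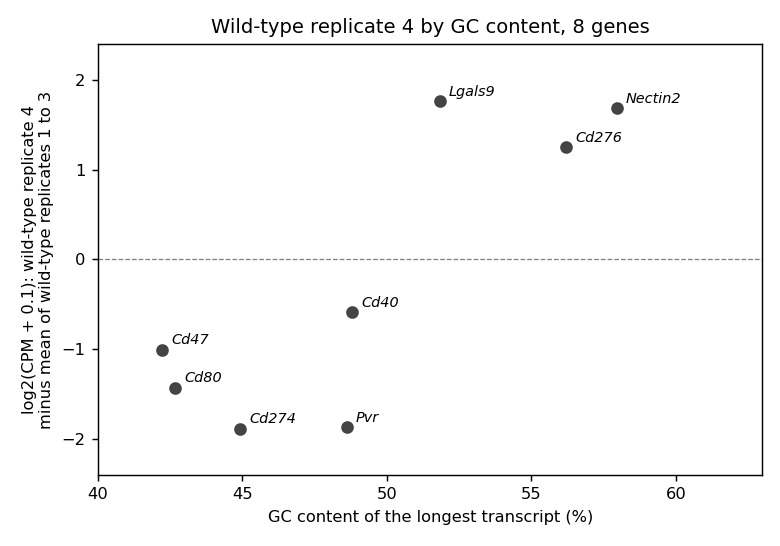
Each point is 1 of the 8 tested genes: GC content of its longest transcript (%, x axis) against log2(CPM + 0.1) in wild-type replicate 4 minus the mean of wild-type replicates 1 to 3 (y axis). The 3 genes above 51% GC lie above 0 and the 5 below 49% lie below it.

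The 5 tested genes whose pattern over the 8 libraries was most like that of Cd274, by Pearson's r of log2(CPM + 0.1), were Acsl1 (0.998), Atg2b (0.990), Ppp1r2 (0.987), Crebrf (0.986) and Eif2ak4 (0.985). All 5 were highest in wild-type replicate 3 and lowest in wild-type replicate 4, as Cd274 was. Among the other ligands r with Cd274 over the 8 libraries was 0.79 for Pvr, 0.77 for Cd47, 0.32 for Cd40, 0.16 for Cd80, -0.18 for Nectin2, -0.35 for Lgals9 and -0.94 for Cd276. These are descriptions over libraries that differed in depth and in how their levels went with GC content, and the part of either was not tested.

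Around the 9 ligands, 72 other genes of the same pathways were examined in 10 lists, and 50 had enough reads to be tested. None was called by edgeR at an adjusted p of 0.05, 4 (8%) had an unadjusted p under 0.05, and 5 (10%) did not overlap between genotypes (Icosl, Nectin1, Cadm1, Calr and Cmtm4), against 7.34% and 6.07% of all tested genes. DESeq2 called 1 of the 50, Cadm1, and also Sirpa, which had too few reads for the edgeR test. Over all genes DESeq2 called 399 of the 27620 that it tested. The median log2 fold change of the 50 was -0.06, with 25 above 0.

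**Figure D5:**
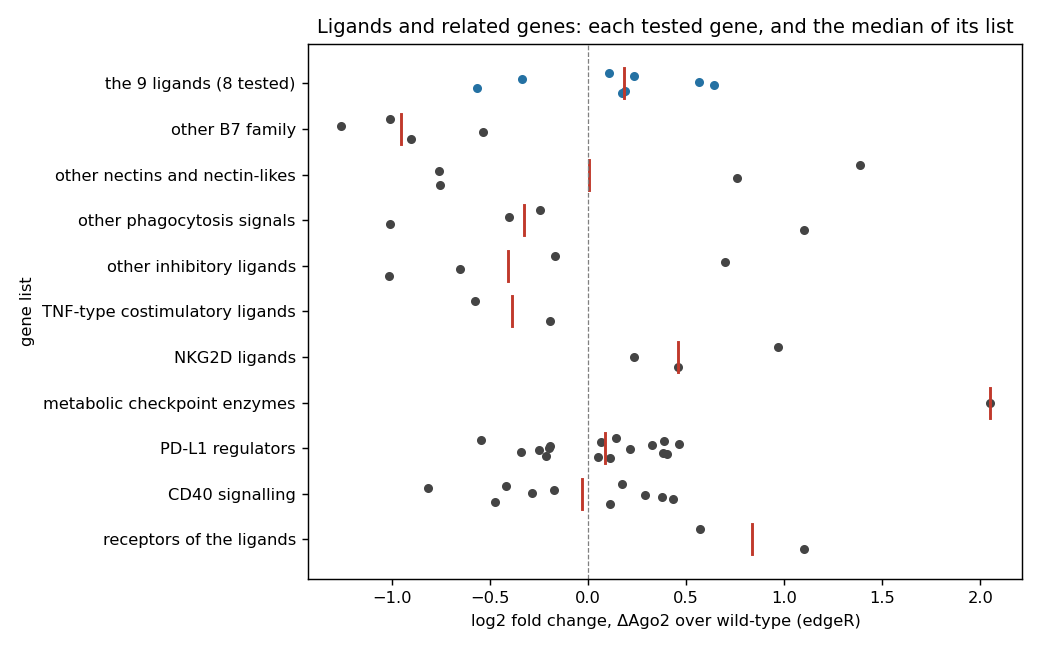
Log2 fold change, ΔAgo2 over wild-type (x axis, edgeR), of each tested gene (points) in the 9 ligands and 10 lists of related genes (y axis); red bars are list medians. No point passed the test, and the medians lie on both sides of 0.

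Nectin relatives held the smallest p of all lists. Cadm1, a nectin-like adhesion protein that binds CRTAM on activated NK and CD8+ T cells, was at 5.22 to 18.1 TPM in wild-type and at 25.4 to 36.5 TPM in ΔAgo2, with no overlap. Its log2 fold change was 1.39 ± 0.28 (SE, adjusted p = 0.099), and it passed the threshold with DESeq2 (adjusted p = 0.00123), with limma-voom with sample weights (adjusted p = 0.0045) and without wild-type replicate 4 (1.25, adjusted p = 0.034). Those settings called 399, 257 and 113 genes, against 42 in the main fit. In the other alternatives Cadm1 did not pass, with an adjusted p of up to 0.339. Nectin1 went the other way, with 12.1 to 17.2 TPM in wild-type, 7.92 to 12.0 TPM in ΔAgo2 and a log2 fold change of -0.75 ± 0.32 (SE, adjusted p = 0.646). All 4 genes of the list were tested, 0 were called in either direction, and 2 were above 0.

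Of 6 other B7 family genes, 4 were tested, 0 were called, and all 4 had log2 fold changes below 0, with a median of -0.96. Over the alternatives the median ran from -1.39 with limma-voom with sample weights to -0.35 on log2(TPM + 1). Btn1a1 (-1.26 ± 0.97, SE) and Btn2a2 (-1.01 ± 0.83, SE) rested on 1 to 68 and 4 to 67 reads per library, and their ranges overlapped between genotypes. Icosl, the ligand of ICOS on T cells, was at 2.19 to 3.42 TPM in wild-type and at 1.47 to 1.94 TPM in ΔAgo2, with a log2 fold change of -0.90 ± 0.35 (SE, adjusted p = 0.582). Vsir (VISTA) was at 6.90 to 11.2 TPM in wild-type and 6.97 to 9.02 TPM in ΔAgo2, and its value was -0.53 ± 0.34 (adjusted p = 0.740). Cd86, the partner of CD80, and Vtcn1 had no reads at all.

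Among 5 other signals to phagocytes, of which 4 were tested and 0 called, Calr, the eat-me signal calreticulin, was at 594 to 1229 TPM in wild-type and 511 to 674 TPM in ΔAgo2. Its CPM did not overlap between groups, and the log2 fold change was -1.01 ± 0.36 (SE, adjusted p = 0.524). Cd24a, a ligand of Siglec receptors, was at 0.210 to 3.60 TPM in wild-type and 1.01 to 7.09 TPM in ΔAgo2, with 1.10 ± 0.80 (adjusted p = 0.760). Of 6 further inhibitory ligands, 4 were tested and 0 called, and the 2 with the smallest p were Hmgb1 (0.70 ± 0.35, adjusted p = 0.706) and Lgals3 (-0.65 ± 0.40, adjusted p = 0.740). Fgl1, a ligand of LAG-3, had no reads.

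Costimulatory ligands of the TNF type, listed together with the TNF receptor family member Tnfrsf14 (HVEM), were sparse, with 2 of 6 genes tested and 0 called. These were Tnfrsf14 at -0.58 ± 0.39 (adjusted p = 0.744) and Tnfsf9 (4-1BBL) at -0.19 ± 0.44 (adjusted p = 0.926). All 3 tested NKG2D ligands of 5 were above 0 and 0 were called, led by Ulbp1 at 0.97 ± 0.57 (adjusted p = 0.738) and Raet1d at 0.46 ± 0.41 (adjusted p = 0.791). Of 4 metabolic checkpoint enzymes, only Nt5e (CD73), which makes adenosine, had enough reads, at 0.0800 to 2.53 TPM in wild-type and 2.00 to 5.73 TPM in ΔAgo2. Its log2 fold change was 2.05 ± 0.95 (SE, adjusted p = 0.680). Ido1 had at most 7 reads in any library.

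The machinery that acts on PD-L1 was present throughout. All 16 regulators on the list were tested and 0 were called, with 10 above 0 and a median log2 fold change of 0.09. Cmtm6 and Cmtm4, which keep PD-L1 protein at the cell surface, had the smallest p. Cmtm6 was at 19.3 to 65.8 TPM in wild-type and 60.1 to 67.3 TPM in ΔAgo2 (0.46 ± 0.29, adjusted p = 0.740), and Cmtm4 was at 17.1 to 41.5 TPM in wild-type and 42.3 to 54.4 TPM in ΔAgo2 (0.32 ± 0.24, adjusted p = 0.761). Of the 10 genes that signal below CD40, all were tested, 0 were called and 5 were above 0, with a median of -0.03. Map3k14 (NIK) was at -0.82 ± 0.44 (adjusted p = 0.729) and Traf3 at 0.43 ± 0.25 (adjusted p = 0.737).

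Leaving out wild-type replicate 4 changed the log2 fold changes of several of these list genes. Lgals3 went to -0.17, Map3k14 to -0.28, Vsir to -0.26, Raet1d to 0.23, Calr to -0.63, Nectin1 to -0.50 and Cmtm4 to 0.21, and Tnfsf9 turned to 0.05. Of the 19 alternatives, 5 turned the direction of Tnfsf9 and 1 that of Map3k14.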

How the data were processed

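RNA-seq of 4 wild-type and 4 ΔAgo2 LLC libraries was used, grouped by their labels. The authors prepared stranded mRNA libraries, sequenced paired ends of 100 bases, aligned reads to ribosomal RNA and then to mm10 (STAR is named in the submitters' processing notes) and used featureCounts to assign reads to genes. Counts, as deposited, are whole numbers of reads per gene, not normalized, and the deposited TPM are those reads scaled by gene length and library total. Depth was 39628101 to 68530912 counts. A count of 0 allows up to 3 counts, which covers counting error only.

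Genes passing filterByExpr (14228) were TMM-normalized and tested with edgeR 4.0.16 (R 4.3.3, quasi-likelihood, two-sided, genotype only), with Benjamini-Hochberg adjustment over all of them. SE is the log2 fold change over the square root of F. Exact permutation tests used all 70 splits (Python 3.11.15). Positions came from GENCODE (GRCm38) and promoters from RefSeq (GRCm38.p6). The script was tested on simulated data.

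Named were the 9 ligands, Ago2, per list the called genes or the 2 with the smallest p, and the 5 genes most like Cd274. The list genes whose groups did not overlap, the genes DESeq2 called and the genes without reads were named after their values were seen, as were overlapping genes, Btn1a1 and Btn2a2. The members and lists were chosen with earlier results of these data known. Alternatives were DESeq2 1.42.0, limma-voom with sample weights (limma 3.58.1), RLE factors, library size alone, 2 other filters, a replicate block, a GC correction, limma on log2(TPM + 1) and log2(TPM + 0.1), and each library left out.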

Additional observations from a re-analysis of the deposited data

Results flagged for a closer look

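In 120 groups of 4 libraries (the tested ligands, Ago2, the tested list genes and the summed TPM of the ligands, each genotype apart), 1 library lay far from the other 3 in 7, where chance gives about 1 in 20. The gap to the nearest library is given as a share of the group's range, on log2(CPM + 0.1). Among the ligands this was Cd80 in ΔAgo2, with replicate 4 lowest (0.864). Nt5e (0.894) and Irf2 (0.896) were also lowest in ΔAgo2 replicate 4, and Btn2a2 was highest in ΔAgo2 replicate 3 (0.863). In wild-type replicate 4, Spop was lowest (0.897), and Stub1 (0.938) and Nfkb2 (0.929) were highest.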

How the results depend on the processing

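None of the 8 ligands was called under any of the 19 alternatives, where Cd40 passed the filter in 16. Of 149 ligand values, 131 kept their direction and 18 turned, and Cd47 and Cd276 kept theirs in all. Nectin2 (-0.34) became 0.12 with limma-voom with sample weights, 0.072 with GC correction, 0.28 with replicate block and GC correction, and 0.20 and 0.23 on log2(TPM + 1) and log2(TPM + 0.1). Pvr became -0.051 and Cd40 -0.53 with limma-voom with sample weights, and Cd40 -0.043 with replicate block and GC correction. Leaving out 1 library gave -0.12 to 0.72 for Cd274, -0.14 to 0.64 for Cd80, 0.20 to 1.15 for Pvr, -0.70 to 0.15 for Nectin2, -0.034 to 0.85 for Lgals9 and -0.77 to 0.49 for Cd40. Ligands without overlap numbered 0 to 2 with 1 library left out: Cd47 without wild-type replicate 3 or ΔAgo2 replicate 3, and Cd276 without wild-type replicate 3. The libraries left out there were those that had made the overlap. The share of all tested genes without overlap is not given for these settings, in which fewer values separate more easily.

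Of all genes, 42 were called, against 399 with DESeq2, 257 with limma-voom with sample weights, 68 with GC correction, 8 with CPM of at least 1 in 4 libraries, 3 on log2(TPM + 1), 27 on log2(TPM + 0.1), and 1 (without ΔAgo2 replicate 1) to 113 (without wild-type replicate 4) with 1 library left out. With the replicate block 18 were called, and 66 with GC correction added. Deviations of same-numbered libraries correlated at -0.13 to 0.38, so the numbers were not taken as pairs. Of the list genes, 0 were called, against 2 with DESeq2 (Cadm1, and Sirpa, which edgeR's filter left out), 1 with limma-voom with sample weights and 0 to 1 with 1 library left out. The causes were not tested. Pdcd1lg2, without reads, could not be tested at this depth.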

Other observations

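Of the 10 receptors that these ligands bind, or their partners, 2 had enough reads for the edgeR test in LLC cells, and 0 were called by it. DESeq2, without that filter, called Sirpa, the receptor of CD47 (adjusted p = 0.00894), which had 5, 4, 8 and 13 reads in wild-type replicates 1 to 4 and 0 in all 4 ΔAgo2 libraries, where a count of 0 allows up to 3 per library. Tigit, the receptor of PVR and nectin-2 that is known from T and NK cells, was at 10.7 to 42.2 TPM in wild-type and 27.1 to 84.1 TPM in ΔAgo2 (log2 fold change 1.10 ± 0.53 (SE), adjusted p = 0.706), although Cd3e and Ncr1 had no reads. In the GENCODE annotation 0 other genes overlapped Tigit. Havcr2 (TIM-3), a receptor of galectin-9, was at 0.630 to 11.8 TPM in wild-type and 1.28 to 18.4 TPM in ΔAgo2 (0.57 ± 0.86, adjusted p = 0.883), and its log2 fold change was 0.23 without wild-type replicate 4. Pdcd1, Ctla4, Cd226, Cd96 and Cd40lg had no reads. Across the 8 libraries Havcr2 varied with Cd80 (Pearson's r = 0.93 of log2(CPM + 0.1), a pair picked after the values were seen and given as a description).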
